A study of Mus musculus with 8 samples.

Results

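The transcripts described here are those of p53, the transcription factor encoded by Trp53, and of 32 genes that p53 is known to activate or be restrained by. The 33 were taken by name from a list of p53 targets and looked up among the 48795 genes of the count table, where all 33 were found. They fall into 4 genes for p53 and its regulators, 8 for cell cycle arrest, 13 for apoptosis, 4 for DNA repair and 4 for metabolism. RNA came from LSK cells of C57BL/6 mice, sorted from bone marrow as cells that lack lineage markers and carry Sca-1 and c-KIT, a fraction with the stem cells and early progenitors of blood. All mice had been induced for chronic myeloid leukaemia (CML) for 10 weeks. There were 4 control (cre-) libraries and 4 SIRT1 deleted (cre+) libraries, called control and Sirt1-deleted below, which the design text calls biological replicates. Titles begin with 1 or 2 for controls and with 3 or 4 for Sirt1-deleted libraries, and the meaning of that digit and the genotype cannot be told apart. The labels do not name the transgene that induces CML, the promoter that drives Cre, or the ages of the mice, and there is no group without leukaemia.

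p53 is a tetrameric transcription factor that is stabilised after DNA damage and other stress. It binds paired copies of a short DNA decamer and switches on genes that stop the cell cycle, repair DNA, change metabolism or start apoptosis. MDM2 and MDM4 hold it in check by ubiquitination and by covering its activation domain, and Mdm2 is itself a p53 target gene. SIRT1 is an NAD-dependent deacetylase, and p53 is one of its substrates: deacetylation of lysines near the C terminus lowers p53 activity. In haematopoietic stem cells p53 is known as a guardian of quiescence and of the response to DNA damage. Acetylation of the protein leaves no trace in a transcript count, so only the levels of the Trp53 transcript and of the target transcripts were compared.

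The 250 bases before the annotated start were searched in the RefSeq promoter table (build GRCm38.p6) for letter matches to the p53 half-site decamer. The decamer is its own reverse complement, so that a single pass covers both strands. A window was taken to hold a full site where a pair of half-sites lay at most 13 bases apart. Of the 33 genes, 25 had at least 1 window, 33 windows in all. A half-site stood in 12 of the 33 windows (36.4%), against 2341 of 32851 promoter windows of all genes (7.13%). A full site stood in 1 of the 33, the upstream start of Cdkn1a, against 21 of all windows (0.0639%). The windows below are that of Cdkn1a, those of the members Bax, Trp53 and Sesn1, whose levels are taken up below, and that of Mdm2. Each is written 5′ to 3′ on the strand of the gene, without protein-coding exons, and the half-sites are in capitals.
Cdkn1a, upstream start (chr17:29090729-29090975, plus strand): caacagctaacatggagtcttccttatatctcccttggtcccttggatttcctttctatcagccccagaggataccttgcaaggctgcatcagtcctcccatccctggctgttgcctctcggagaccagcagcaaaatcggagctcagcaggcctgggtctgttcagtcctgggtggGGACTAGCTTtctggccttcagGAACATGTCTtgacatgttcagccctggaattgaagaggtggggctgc
Bax (chr7:45466899-45467148, minus strand): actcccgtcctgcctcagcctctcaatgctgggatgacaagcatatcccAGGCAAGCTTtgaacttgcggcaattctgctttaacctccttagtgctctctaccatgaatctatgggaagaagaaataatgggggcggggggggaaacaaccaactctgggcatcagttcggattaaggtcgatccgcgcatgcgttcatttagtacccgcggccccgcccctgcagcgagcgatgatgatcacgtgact
Trp53 (chr11:69580256-69580358, plus strand): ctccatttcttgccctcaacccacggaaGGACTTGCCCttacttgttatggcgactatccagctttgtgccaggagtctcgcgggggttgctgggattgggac
Sesn1, downstream start (chr10:41887189-41887438, plus strand): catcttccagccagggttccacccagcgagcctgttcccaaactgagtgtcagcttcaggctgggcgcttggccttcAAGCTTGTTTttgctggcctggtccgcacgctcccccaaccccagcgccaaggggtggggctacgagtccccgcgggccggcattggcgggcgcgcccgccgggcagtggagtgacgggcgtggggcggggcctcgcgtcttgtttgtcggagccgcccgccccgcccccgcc
Mdm2 (chr10:117710759-117711008, minus strand): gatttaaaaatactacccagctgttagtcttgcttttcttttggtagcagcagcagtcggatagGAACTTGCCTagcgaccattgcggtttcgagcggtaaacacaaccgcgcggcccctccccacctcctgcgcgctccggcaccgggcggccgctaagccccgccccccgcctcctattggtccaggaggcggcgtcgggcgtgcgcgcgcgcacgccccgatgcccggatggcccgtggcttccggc
In the Cdkn1a window the half-sites GGACTAGCTT and GAACATGTCT begin 73 and 51 bases before the start. The half-site begins 201 bases before the start of Bax (AGGCAAGCTT), 75 before that of Trp53 (GGACTTGCCC), 173 before that of Sesn1 (AAGCTTGTTT) and 186 before that of Mdm2 (GAACTTGCCT). The window of Btg2, another gene taken up below, held no match, and Pmaip1 and Perp, also taken up below, had no window to search. A match is a match of letters, and binding was not measured. Near matches and sites outside these windows are not marked, so the capitals need not be the stretch that p53 binds. The genes were taken from a list of p53 targets, so their share of matches is no independent result.

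Library totals over genes were 18252562 to 34280925 counts. Between 15316 (control 2) and 20342 (Sirt1-deleted 4) genes were detected, and Sirt1-deleted 1 was second lowest with 16154. Sirt1 itself was at 13.1 ± 4.92 CPM (counts scaled to library size by TMM; SD, n = 4) in controls and 10.9 ± 4.24 in Sirt1-deleted libraries, a log2 fold change (log2 ratio below) of -0.26 with an SE of 0.39 (adjusted p = 0.797 by edgeR). Which exons were deleted is not stated in the labels, and reads over the others are still counted, so this total does not check the genotype. Of 15 stem cell and LSK markers, 11 had counts in every library, with summed levels of 1053 to 1810 CPM across controls and 1487 to 1853 across Sirt1-deleted libraries. Of the sort markers, Kit was at 32.4 to 44.0 CPM (control) and 107.7 to 157.5 CPM (Sirt1-deleted), and Ly6a (Sca-1) at 231.9 to 780.2 and 118.9 to 224.1, neither with overlap. Markers of granulocyte-monocyte progenitors (10 of 10 with counts in every library) summed to 11270 to 23780 and 7802 to 14060 CPM. Those of neutrophils (10 of 10) summed to 2212 to 5517 and 1416 to 2835 CPM, those of mast cells and basophils (10 of 10) to 1361 to 7228 and 541 to 1497. T and NK cell markers (8 of 10) summed to 692 to 845 and 499.5 to 614 CPM and did not overlap between the groups. B and plasma cell markers (7 of 10) summed to 819.9 to 2303 and 669 to 5208 CPM. Of the erythroid list 3 of 10 had counts in every library, and the list summed to 55.6 to 182.7 and 45.6 to 114.3 CPM. The part of these differences in the results below was not tested, and in sorted bulk RNA fewer cells of a type and less RNA per cell cannot be told apart.

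No p53 target gene passed the test between the genotypes, and their values lay on both sides of 0. Of the 33, 32 passed the filter on low counts, and 0 of them were called at an adjusted p under 0.05 (edgeR quasi-likelihood test), where 0.0846% of the 14178 genes tested were called, 0.0494% as higher and 0.0353% as lower in Sirt1-deleted libraries. Their median log2 fold change was 0.06, and that of all genes tested was also 0.06. Positive values were seen for 17 of the 32 and for 53.9% of all genes. At an unadjusted p under 0.05 there were 7 members, 3 higher and 4 lower in Sirt1-deleted libraries, which is 21.9% against 16.2% of all genes (7.55% higher and 8.6% lower). The groups did not overlap for 5 members, 15.6% against 13.1% of all genes, with 2 higher (6.64% of all genes) and 3 lower (6.44%). Both shares lie near those of all genes. In counts simulated from these libraries, recovery by edgeR was 8% for 2-fold and 59% for 4-fold changes. The changed genes were drawn from all genes of at least 5 CPM, and most single 2-fold changes in such genes would be missed at this size. Spread differs between genes, so these shares are not those of the members, whose own recovery was not simulated. DESeq2 gave an adjusted p for 10023 genes, 27 members among them, and called 5 members (Bax, Btg2, Perp, Pmaip1 and Sesn1) where it called 11.3% of those genes. In the simulated counts it recovered 38% of 2-fold and 80% of 4-fold changes with 49 false among 167 calls, against 5 false among 72 calls by edgeR. Limma-voom with quality weights called 4 (Bax, Btg2, Pmaip1 and Sesn1), where it called 8.03% of all genes. In the simulated counts limma-voom recovered 9% of 2-fold and 53% of 4-fold changes, with 3 false among 65 calls. Without control 2 and Sirt1-deleted 1, the libraries of fewest detected genes, edgeR called 3 (Bax, Btg2 and Pmaip1) and 2.13% of all genes. Without Sirt1-deleted 1 alone it called 2 (Bax and Btg2) and 3.05% of all genes.

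**Figure D1:**
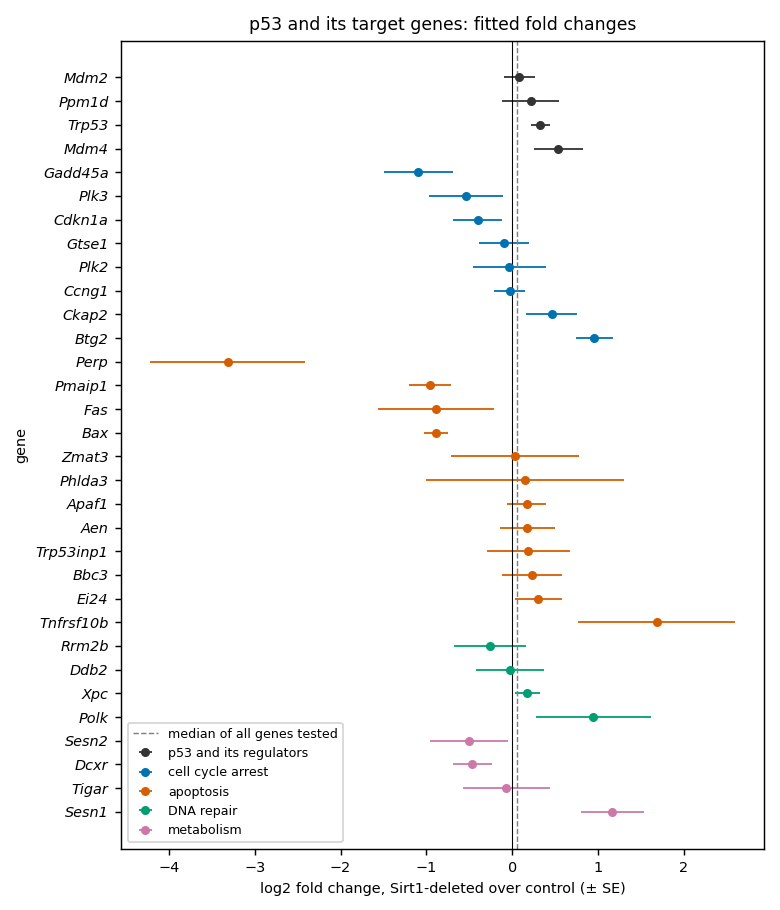
Log2 fold changes of Sirt1-deleted over control libraries (x axis, points ± SE from edgeR, 4 libraries per group) for the 32 genes tested (y axis), coloured by role, with the median of all genes tested as a dashed line. The points lie on both sides of 0 within every role but that of p53 and its regulators, from -3.31 for Perp to 1.68 for Tnfrsf10b.

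All 33 are protein-coding genes of the GENCODE M21 annotation. In build GRCm38, Trp53 spans chr11:69580359-69591873 on the plus strand, Bax chr7:45461697-45466898 and Btg2 chr1:134075170-134079120 on the minus strand, and Perp chr10:18845020-18857073 and Sesn1 chr10:41809935-41908424 on the plus strand. Their levels spanned a wide range, and levels are given here per kilobase of the merged exons of a gene. The level per kilobase in controls ran from 0.0948 CPM for Zmat3 to 112 for Bax. Bax, the pore-forming protein of the mitochondrial death pathway, ranked 1 in controls and 3 in Sirt1-deleted libraries (60.8 CPM per kilobase). Btg2, an antiproliferative co-regulator, was second in controls at 70.8 and first in Sirt1-deleted libraries at 137. Cdkn1a and Trp53 followed in controls at 56.5 and 54.7 CPM per kilobase, within the spread of Cdkn1a between libraries. Dcxr (48.4), a carbonyl and sugar reductase gene, and Xpc (25.2), a DNA damage sensor gene, came next and held the same ranks, 5 and 6, in both groups. At the low end stood Fas, Mdm4, Rrm2b, Polk, Tnfrsf10b and Zmat3, each under 2 CPM per kilobase in both groups. Eda2r, the receptor of ectodysplasin A2, had 5 counts in Sirt1-deleted 2 and 0 in the other 7 libraries, and was too low to test.

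Trp53 transcript was at 257, 197, 203 and 228 CPM in controls 1 to 4 and at 264, 304, 272 and 272 CPM in Sirt1-deleted 1 to 4. All Sirt1-deleted libraries lay above all controls, although control 1 and Sirt1-deleted 1 differed little. The difference was 1.26-fold (log2 ratio 0.33 ± 0.11, adjusted p = 0.204 by edgeR) and was not called in any of the 19 alternatives (adjusted p from 0.0819 to 0.996). It was 0.003 once the trend with gene length and GC content of each library was removed, a step that shifted the median of all genes by -0.26. Reads of the pseudogene Trp53-ps, which shares sequence with it, were at most 2 per library.

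The regulators of p53 showed small differences. Mdm2, the ubiquitin ligase that p53 itself induces, was at 40.0, 49.1, 42.8 and 33.9 CPM in controls and 49.3, 48.9, 35.3 and 42.1 in Sirt1-deleted libraries. These values overlap throughout (log2 ratio 0.08 ± 0.18, adjusted p = 0.864 by edgeR). Mdm4, a relative that blocks the activation domain of p53, was at 9.16, 21.2, 19.1 and 13.5 CPM in controls and 19.2, 23.6, 23.97 and 24.6 in Sirt1-deleted libraries. Its Sirt1-deleted values were close together, and control 2 lay within their range (log2 ratio 0.54 ± 0.29, adjusted p = 0.403 by edgeR). Ppm1d, the phosphatase that switches p53 signalling off, ranged from 14.2 to 38.0 CPM across controls and from 18.0 to 35.0 across Sirt1-deleted libraries (log2 ratio 0.22 ± 0.34, adjusted p = 0.804 by edgeR). All 4 genes of this role had positive log2 fold changes, with a median of 0.27, but after the length and GC correction it was -0.05. That correction moved the median of all genes from 0.06 to -0.20. Mdm2 and Ppm1d were then at -0.29 and -0.11, on the other side of 0.

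Among the arrest genes, values went both ways and the median log2 fold change was -0.06, with 2 of 8 positive. Cdkn1a, which encodes the cyclin-dependent kinase inhibitor p21 and is the most used readout of p53 activity, was at 304, 132, 189 and 178 CPM in controls. It was at 192, 183, 127 and 105 CPM in Sirt1-deleted libraries. Control 1 was the highest library, and Sirt1-deleted 1 and 2 lay inside the range of the controls (log2 ratio -0.40 ± 0.28, adjusted p = 0.547 by edgeR). Over the alternatives its value ran from -0.74 to -0.17, without a call.

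Btg2 was the arrest gene with the smallest p. It was at 191, 149, 213 and 223 CPM in controls and at 262, 526, 368 and 351 CPM in Sirt1-deleted libraries. Every Sirt1-deleted library was above every control, and Sirt1-deleted 2 was well above the rest. The means were 194 ± 32.8 and 377 ± 110.1 CPM (SD, n = 4 each), 1.94-fold apart (log2 ratio 0.96 ± 0.22, adjusted p = 0.106 by edgeR). Leaving out single libraries gave log2 fold changes from 0.72 (without Sirt1-deleted 2, adjusted p = 0.241) to 1.06 (without Sirt1-deleted 1, adjusted p = 0.0369), and the adjusted p reached 0.306 without Sirt1-deleted 4. Besides p53, growth factors and other stimuli of immediate early genes are known to induce Btg2, so its level is not a readout of p53 alone.

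Gadd45a, a stress protein that slows the entry into mitosis, had the opposite direction. It was at 21.5, 9.91, 13.8 and 13.6 CPM in controls and at 3.59, 10.5, 6.24 and 7.20 CPM in Sirt1-deleted libraries. Sirt1-deleted 2 exceeded control 2, so the groups overlapped (log2 ratio -1.09 ± 0.40, adjusted p = 0.230 by edgeR). Of the exon length of Gadd45a, 19.1% is overlapped by E230016M11Rik on the other strand, which had 7 to 73 counts per library, and the libraries do not mark strand.

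The remaining arrest genes did not separate the groups. Plk3, a stress-activated polo-like kinase, ranged from 33.7 to 93.8 CPM in controls, while 3 Sirt1-deleted libraries were at 28.3 to 30.7 and Sirt1-deleted 2 at 80.3. Its log2 fold change was -0.54 with that library and -1.09 without it (adjusted p = 0.598 and 0.287 by edgeR). Plk2, a related kinase, had 2 controls at 11.3 and 12.2 CPM and 2 at 26.7 and 27.4, and Sirt1-deleted values of 11.9 to 31.8. Ccng1 (cyclin G1), at 24.5 to 33.8 CPM across controls and 25.2 to 31.4 across Sirt1-deleted libraries, was the steadiest of the role. Gtse1 and Ckap2, which encode microtubule proteins of cycling cells, had log2 fold changes of -0.09 and 0.46.

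**Figure D2:**
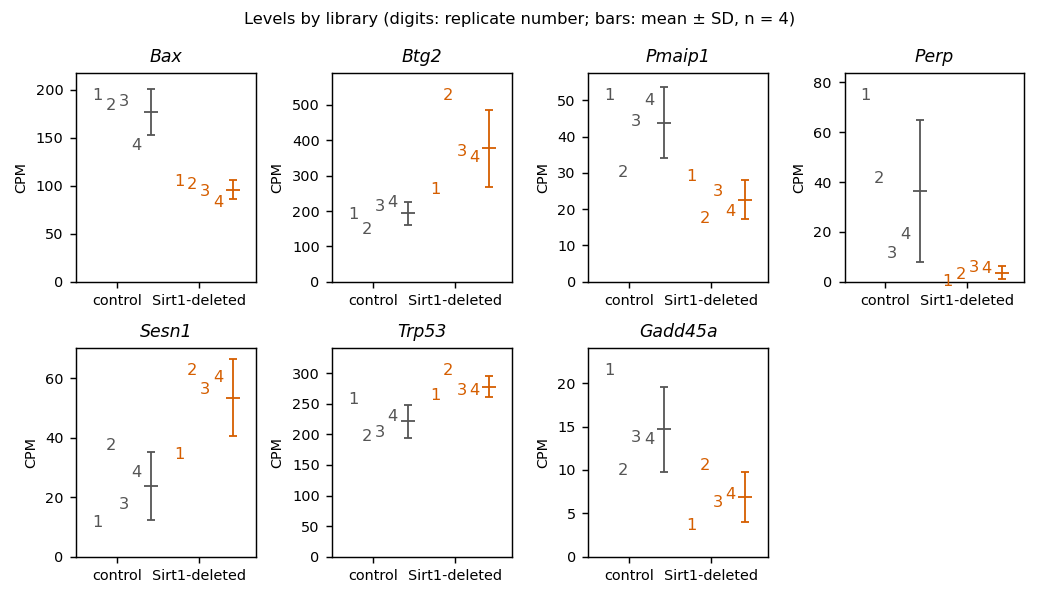
Levels (y axis, CPM from 0) of the 7 genes with an unadjusted p under 0.05 in each control and Sirt1-deleted library (x axis); digits are replicate numbers and bars the mean ± SD of 4 libraries. Bax, Pmaip1 and Perp lie lower and Btg2 and Trp53 higher in all 4 Sirt1-deleted libraries, whereas Sesn1 and Gadd45a overlap between the groups.

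Apoptosis, the role with the most genes, had the widest range of log2 fold changes, from -3.31 for Perp to 1.68 for Tnfrsf10b. Its median log2 fold change without sign was 0.27, against 0.42 for all genes tested. That median was 0.43 for arrest, 0.48 for metabolism, 0.27 for p53 and its regulators and 0.22 for repair. Of 12 tested, 3 had groups that did not overlap, all lower in Sirt1-deleted libraries (Bax, Pmaip1 and Perp), where 6.44% of all genes were lower in this way. The other 9 overlapped, and 8 of the 12 had positive log2 fold changes. The median was therefore 0.16, while the mean of the levels of the role, given below, was lower in Sirt1-deleted libraries.

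Bax was at 194, 184, 188 and 142 CPM in controls 1 to 4 and at 105, 101, 94.3 and 82.5 CPM in Sirt1-deleted 1 to 4. Both groups were tight and well apart, the highest Sirt1-deleted library lying below the lowest control. The means were 177 ± 23.6 and 95.8 ± 9.92 CPM (SD, n = 4 each), 1.85-fold lower in Sirt1-deleted libraries (log2 ratio -0.89 ± 0.14, adjusted p = 0.0632 by edgeR). That is the smallest adjusted p of the 33 genes. The value ran from -1.02 to -0.76 over the 19 alternatives, and 4 of them called it: DESeq2 (adjusted p = 2.79e-06), limma-voom (0.0142), the fit without Sirt1-deleted 1 (0.0331) and the fit without control 2 and Sirt1-deleted 1 (0.0439). Of its exon length 12.2% is shared with Gm45808, a gene on the same strand with 0 counts in every library.

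Pmaip1, which encodes Noxa, a BH3-only protein that neutralises the survival protein MCL1, was at 51.3, 30.1, 44.0 and 49.9 CPM in controls. It was at 28.9, 17.4, 24.9 and 19.3 CPM in Sirt1-deleted libraries, so that control 2 and Sirt1-deleted 1 nearly met. The means were 43.8 ± 9.67 and 22.6 ± 5.27 CPM (SD, n = 4 each, log2 ratio -0.95 ± 0.24, adjusted p = 0.131 by edgeR). Over the alternatives the log2 fold change ran from -1.28 without these 2 libraries (adjusted p = 0.0439 by edgeR) to -0.79 with only titles that start with 2 or 4 (adjusted p = 0.349).

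Perp, a tetraspan membrane protein known from p53-dependent apoptosis and from cell junctions of epithelia, differed most in size. It was at 74.7, 41.5, 11.2 and 18.8 CPM in controls and at 0.270, 3.10, 5.91 and 5.41 CPM in Sirt1-deleted libraries. Controls 1 and 2 were far above controls 3 and 4, and the 7 counts of Sirt1-deleted 1 set the lowest value. The means were 36.6 ± 28.5 and 3.67 ± 2.58 CPM (SD, n = 4 each), 9.96-fold lower in Sirt1-deleted libraries (log2 ratio -3.31 ± 0.90, adjusted p = 0.140 by edgeR). DESeq2 called it (adjusted p = 0.000945) and limma-voom did not (log2 fold change -2.40, adjusted p = 0.0567). Its size was not well fixed, with a log2 fold change of -4.47 once detected genes were a covariate (adjusted p = 0.204 by edgeR) and of -3.67 to -2.73 without single libraries. In the same order of libraries the mast cell and basophil markers summed to 7228, 1661, 1361 and 2436 CPM and to 1266, 541, 1497 and 718 CPM. Neutrophil markers summed to 5517, 3973, 2212 and 2761 CPM and to 2835, 1416, 1644 and 1685 CPM. Control 1 was the highest library for Perp and for both lists, and the 4 controls ranked alike for Perp and the neutrophil markers. Sirt1-deleted 1, the lowest library for Perp, was not the lowest for either list. The part of these or of the other marker lists in the Perp values was not tested.

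The other apoptosis genes overlapped between the groups. Bbc3, which encodes the BH3-only protein Puma, was at 14.8, 10.8, 25.5 and 11.5 CPM in controls and 24.7, 20.3, 12.5 and 16.1 in Sirt1-deleted libraries. Its log2 fold change was 0.23 ± 0.35 (edgeR adjusted p = 0.797), and it was 0.03 with limma-voom and -0.13 without control 2 and Sirt1-deleted 1, on the other side of 0. Apaf1, the scaffold of the apoptosome, was at 15.96 to 23.8 CPM across controls and 18.6 to 28.1 across Sirt1-deleted libraries. Aen, a nuclease gene, ranged from 36.3 to 88.6 and from 55.5 to 116 CPM, and Ei24, which encodes a membrane protein of the endoplasmic reticulum, from 22.2 to 39.3 and from 23.4 to 50.8. Trp53inp1, a nuclear co-factor of p53, ranged from 9.19 to 25.5 CPM across controls and from 6.12 to 24.7 across Sirt1-deleted libraries.

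Death receptor and low-level genes were less certain. Fas was at 2.45 to 5.72 CPM across controls and 0.583 to 3.90 across Sirt1-deleted libraries (log2 ratio -0.89 ± 0.68, adjusted p = 0.577 by edgeR). Tnfrsf10b, the mouse TRAIL receptor, was at 0.0554 to 1.16 and 0.966 to 3.67 CPM, on 1 to 90 counts per library (log2 ratio 1.68 ± 0.92, adjusted p = 0.413 by edgeR). Zmat3, an RNA-binding zinc finger gene, had 13 to 42 counts. Phlda3, an inhibitor of AKT, had 51, 790, 1 and 109 counts in controls 1 to 4 and 249 to 332 in Sirt1-deleted libraries. Its log2 fold change was 0.15 with all libraries and 1.97 without control 2, so it turns on that library.

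**Figure D3:**
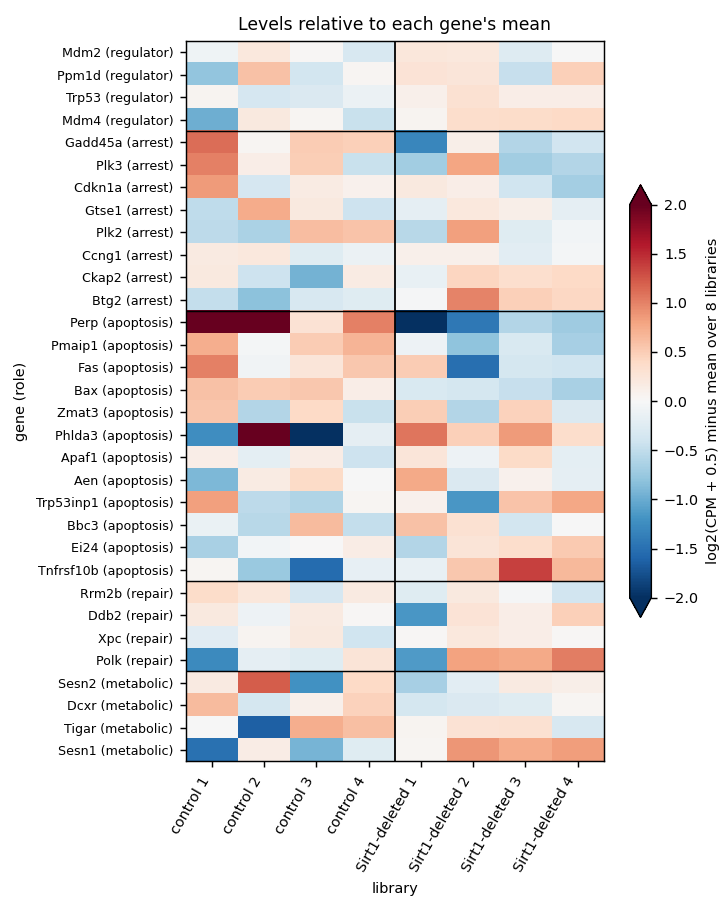
Levels of the 32 genes tested (rows, by role) in the 8 libraries (columns), as log2(CPM + 0.5) minus the mean of the gene over the libraries; red is above and blue below that mean, and colours end at 2 in either direction. Bax and Pmaip1 are lower in all 4 Sirt1-deleted libraries, whereas Phlda3, Perp and Tigar vary strongly among controls.

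The repair genes overlapped between the groups. Xpc, which senses bulky DNA damage, was at 124, 151, 167 and 111 CPM in controls and 148, 169.9, 161 and 148 in Sirt1-deleted libraries. The Sirt1-deleted values sat within the upper part of the control range or just above it (log2 ratio 0.18 ± 0.14, adjusted p = 0.600 by edgeR). Ddb2, its partner in damage recognition, was at 8.29 to 10.3 CPM in controls. In Sirt1-deleted libraries it was at 3.71, 11.0, 9.82 and 12.7, with Sirt1-deleted 1 lowest (log2 ratio -0.03 ± 0.40, adjusted p = 0.985 by edgeR). Of its exon length 23.8% is overlapped by Acp2 on the other strand, which had 76, 106, 383 and 313 counts in controls and 643, 896, 552 and 538 in Sirt1-deleted libraries. These are raw counts, which also follow the library totals. Relative to the totals the groups overlapped. Control 3 had 383 Acp2 counts of 18252562, a larger share than the 538 of 32252185 in Sirt1-deleted 4. The part of Acp2 reads in the Ddb2 values was not tested. Rrm2b, the p53-induced subunit of ribonucleotide reductase, was at 3.32 to 5.76 and 3.23 to 5.06 CPM. Polk, a translesion DNA polymerase gene, was at 1.24 CPM in Sirt1-deleted 1 and at 5.95 to 7.20 in the other 3, against 1.08 to 4.03 in controls (log2 ratio 0.94 ± 0.67, adjusted p = 0.550 by edgeR).

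Of the metabolic targets, Sesn1 had the smallest p, and all 4 overlapped between the groups. Sesn1, a sestrin that restrains mTORC1 signalling, was at 11.6, 37.4, 17.4 and 28.4 CPM in controls and at 34.4, 62.5, 56.2 and 60.3 CPM in Sirt1-deleted libraries. Only control 2 and Sirt1-deleted 1 overlapped. The means were 23.7 ± 11.5 and 53.4 ± 12.9 CPM (SD, n = 4 each), 2.25-fold apart (log2 ratio 1.17 ± 0.37, adjusted p = 0.182 by edgeR). It was called by DESeq2 (0.0330) and limma-voom (0.0200). The value was 0.72 after the length and GC correction, which shifted the median of all genes by -0.26. Sesn1 is also known as a target of FOXO factors.

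Its paralogue Sesn2 was at 34.9, 71.7, 13.01 and 40.6 CPM in controls and 19.1, 26.3, 34.7 and 33.1 in Sirt1-deleted libraries (log2 ratio -0.50 ± 0.45, adjusted p = 0.641 by edgeR). Its controls were far apart, and without control 2 the log2 fold change was -0.10. Tigar, a phosphatase that turns glucose away from glycolysis, was at 2.77 to 16.2 CPM across controls and 7.60 to 11.98 across Sirt1-deleted libraries. Dcxr was at 71.8, 36.2, 49.4 and 64.0 CPM in controls and 36.2, 37.7, 39.1 and 47.5 in Sirt1-deleted libraries. Control 2 was level with the lowest Sirt1-deleted library, and the other controls lay above all of them (log2 ratio -0.46 ± 0.23, adjusted p = 0.365 by edgeR).

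Set side by side, the roles had median log2 fold changes of 0.27 (p53 and its regulators), -0.06 (arrest), 0.16 (apoptosis), 0.08 (repair) and -0.27 (metabolism). The repair median lay on either side of 0 over the alternatives, from -0.24 to 0.21. As a mean of centred log2 levels per library, arrest genes were at -0.14 to 0.23 across controls and -0.33 to 0.45 across Sirt1-deleted libraries. Apoptosis genes were at -0.21 to 0.32 and -0.39 to 0.17, repair genes at -0.24 to 0.015 and -0.63 to 0.38, and metabolic genes at -0.33 to 0.31 and -0.23 to 0.24. The groups overlapped in every role, the regulators included (-0.45 to 0.17 and -0.05 to 0.27). Sirt1-deleted 1 was the lowest library for arrest (-0.33) and repair (-0.63), and Sirt1-deleted 2 the highest for both (0.45 and 0.38). For apoptosis the median fold change was positive and the mean level lower in Sirt1-deleted libraries (-0.09 against 0.09), since Perp, Pmaip1, Fas and Bax had large negative values. For metabolism the reverse held (0.09 against -0.09), since Sesn1 was far from the other 3.

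**Figure D4:**
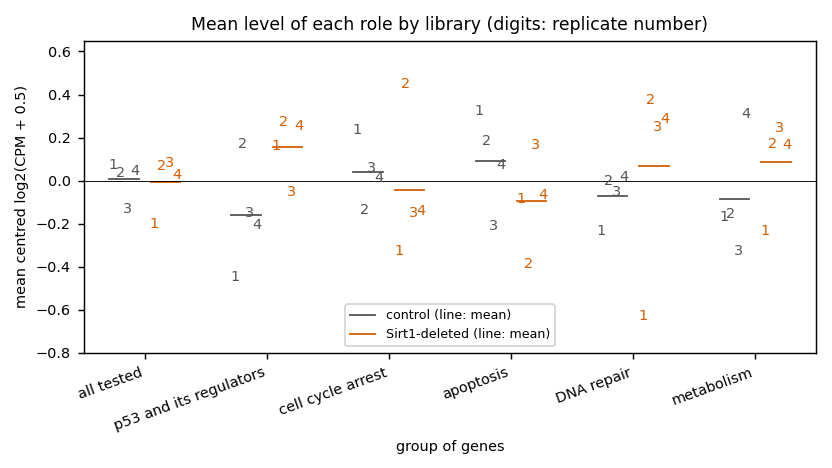
Mean centred log2(CPM + 0.5) (y axis) of the 32 tested genes of the p53 list and of each role (x axis) in every library. Digits are replicate numbers and lines are group means. Controls and Sirt1-deleted libraries overlap in each role, and Sirt1-deleted 1 is lowest for arrest and repair.

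Genes that act on p53 were taken as a further list of 48 kinases, acetylation enzymes, ubiquitin ligases, ribosomal proteins and cofactors. All 48 were tested and 0 were called (0.0846% of all genes). At an unadjusted p under 0.05 there were 13, 27.1% against 16.2% of all genes, 8 higher and 5 lower, and the median log2 fold change was 0.16. Among the higher values, Pml, the scaffold of nuclear bodies where p53 is modified, was at 64.7, 43.0, 32.0 and 45.0 CPM in controls and 106.9, 71.6, 69.0 and 98.9 in Sirt1-deleted libraries. Those groups did not overlap (log2 ratio 0.91 ± 0.25, adjusted p = 0.140 by edgeR). Trp53bp2 and Ppp1r13b, members of the ASPP family that steer p53 towards apoptosis genes, had log2 fold changes of 0.96 and 1.04 (adjusted p = 0.187 and 0.168), and Topbp1, a checkpoint adaptor, 0.42. Among the lower values, Rpl5 and Rpl11, parts of the large ribosomal subunit that can also bind and block MDM2, had log2 fold changes of -0.48 and -0.56 (adjusted p = 0.106 and 0.217). Npm1, a nucleolar chaperone, had -0.51 and Daxx, a histone chaperone gene, -0.49.

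A list of 54 further p53 targets gave a like picture. Of 49 tested, 0 were called and 9 had an unadjusted p under 0.05 (18.4% against 16.2% of all genes), 4 higher and 5 lower, with a median log2 fold change of 0.16. Nupr1, a stress-induced chromatin protein gene, was at 30.9, 23.9, 25.5 and 31.1 CPM in controls and 16.6, 12.1, 13.1 and 12.1 in Sirt1-deleted libraries. Its groups did not overlap (log2 ratio -1.05 ± 0.21, adjusted p = 0.0950 by edgeR). Dram1, a lysosomal autophagy gene, had a log2 fold change of -0.99, Rps27l, a ribosomal protein paralogue, -0.72, and the cytokine gene Lif -1.84, the last with control 1 at 93.7 CPM and controls 2 to 4 at 12.5 to 31.8. Higher values were seen for Polh, the DNA polymerase eta gene that bypasses ultraviolet lesions, at 3.52 ± 0.814 and 8.54 ± 1.07 CPM (SD, n = 4 each; log2 ratio 1.28 ± 0.37, adjusted p = 0.154 by edgeR). Pank1, a coenzyme A synthesis gene, was at 8.02 ± 2.56 and 17.3 ± 3.86 CPM. Tob1, an antiproliferative relative of Btg2, had a log2 fold change of 0.70, and Trp53i11 of 0.67.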

How the data were processed

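RNA of 8 LSK cell libraries was sequenced after SMARTer v4 and Nextera XT preparation, per the labels' protocols, which marks neither strand nor molecules. The table the authors deposited gives raw counts for each gene and library, as whole numbers without normalisation. Per the submitters' processing notes, build GRCm38 was used with STAR 2.5.3, HTSeq 0.9.1, DESeq2 1.20.0, Trim Galore 0.5.0 and bcl2fastq 2.18.0.12. Which annotation release and strand setting were used is not stated there. The 5 summary rows (33.2 to 40.6% of records) were left out. Symbols were found for 99.1% of identifiers. One column, that of control 4, has a different last letter from its title, whose start no other title has. Replicate numbers follow the order of deposit.

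Genes were tested with edgeR 4.0.16 (limma 3.58.1, R 4.3.3): TMM scaling, filterByExpr, robust quasi-likelihood F test, two-sided, Benjamini-Hochberg adjustment over 14178 genes, called under 0.05. SEs are the fitted log2 ratio, without sign, divided by the root of F. DESeq2 1.42.0, limma-voom, other scalings and filters, left-out libraries, a covariate and a length and GC correction were alternatives, 19 in all. The labels do not say that the replicates share no litter or cage, so p-values measure the spread between these libraries. Exon lengths and overlaps came from GENCODE M21 (GRCm38). The scripts were tested on simulated data in which 200 genes of at least 5 CPM were changed by 2-fold or 4-fold.

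The 33 genes and the lists were chosen with earlier results of these data known. Named beside the 33 genes are Sirt1 and, from each further list, up to 4 genes per direction of smallest p with a mean of at least 5 CPM. Marker lists were used as levels.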

Additional observations from a re-analysis of the deposited data

Results flagged for a closer look

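Of 64 groups of 4 libraries examined (32 genes in each genotype), 1 held a library far from the others. Plk3, a polo-like kinase gene, was at 80.3 CPM in Sirt1-deleted 2, where the other Sirt1-deleted libraries were at 28.3 to 30.7 CPM. The gap took up 0.954 of the range of the group, above the critical value of Dixon's test for 4 samples. Chance alone would mark about 1 in 20 groups.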

How the results depend on the processing

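Over 32 genes and 19 alternatives (608 log2 fold changes), 535 kept their direction and their side of the threshold, 5 kept their direction in DESeq2 without an adjusted p, 14 passed the threshold, 0 lost a call and 54 changed sign, 28 of these outside the leaving-out of single libraries. No sign changed for 16 genes, Bax, Btg2, Pmaip1, Perp, Sesn1, Trp53 and Cdkn1a among them. The 12 genes called over the whole table became 1129 with DESeq2, 1138 with limma-voom, 311 without control 2 and Sirt1-deleted 1, 1 with only titles that start with 2 or 4, 0 with detected genes as a covariate, 0 after length and GC correction, and 0 to 451 without single libraries. Members called were 5, 4 and 3 in the first 3 of these and 0 to 2 without single libraries, 2 of them without Sirt1-deleted 1. The apoptosis median was -0.10 without those 2 libraries and -0.10 to 0.19 without single ones. After the length and GC correction, which shifted all genes by -0.26, medians were -0.25 (all members), -0.051 (regulators), -0.37 (arrest), -0.21 (apoptosis) and -0.24 (repair), and signs changed for Mdm2 (-0.29), Ppm1d (-0.105), Trp53inp1 (-0.016), Zmat3 (-0.335), Ei24 (-0.145), Aen (-0.162), Apaf1 (-0.251) and Xpc (-0.245). The repair median was also below 0 with the covariate (-0.056), with the restriction by title (-0.053) and without Sirt1-deleted 2 (-0.022) or 4 (-0.013). The restriction by title gave Mdm2 -0.065 and Tigar 0.04. Total counts gave Ccng1 0.042, Plk2 0.042 and Ddb2 0.05. The covariate gave Ccng1 0.056, Gtse1 0.169 and Trp53inp1 -0.01. Limma-voom, which shifted all genes by 0.104, gave Gtse1 0.161, Zmat3 -0.03, Ddb2 0.177 and Sesn2 0.064. Without those 2 libraries, Gtse1 was 0.228, Bbc3 -0.126, Zmat3 -0.475, Aen -0.075, Ddb2 0.138 and Sesn2 0.046. Upper quartile scaling gave Zmat3 -0.017 and no filter Ddb2 0.002. Without single libraries, ranges that crossed 0 were -0.022 to 0.144 (Mdm2), -0.009 to 0.476 (Ppm1d), -0.143 to 0.005 (Ccng1), -0.287 to 0.174 (Gtse1), -0.437 to 0.163 (Plk2), -0.08 to 0.556 (Trp53inp1), -0.239 to 0.323 (Zmat3), -0.307 to 1.968 (Phlda3), -0.15 to 0.301 (Aen), -0.249 to 0.196 (Ddb2) and -0.429 to 0.159 (Tigar). The cause of these changes was not tested. The labels number no replicates, but the letters B, L, N and R of the titles occur once in each genotype, with no meaning given. Libraries of the same letter deviated from their group means with correlations of -0.086 (L), 0.128 (R), -0.037 (B) and 0.255 (N). For R and N this was the highest correlation of that control with any Sirt1-deleted library. For L and B another library was highest, at 0.056 each. These values do not settle whether the letters pair the libraries, and the main fit did not pair them. With the letter as a replicate block, a fit added after seeing the data, 0 genes and 0 members were called, and Tigar changed sign (0.156). Depth limits Eda2r, Zmat3 and Tnfrsf10b, with at most 90 counts in any library.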

Other observations

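Genes of the cell cycle that p53 is known to lower through p21 and the DREAM repressor complex were examined as a list of 30, all tested. None was called (edgeR adjusted p from 0.0892 upward), while 7 had an unadjusted p under 0.05 (23.3% against 16.2% of all genes), 5 higher and 2 lower in Sirt1-deleted libraries, with a median log2 fold change of 0.14. Birc5, the survivin gene of dividing cells, was at 278, 327, 299 and 300.2 CPM in controls and at 231, 205, 189.5 and 186 CPM in Sirt1-deleted libraries, with no overlap (log2 fold change -0.57 ± 0.11, adjusted p = 0.0892). Rrm2, the S phase subunit of ribonucleotide reductase and the counterpart of the p53 target Rrm2b, was at 353 ± 41.5 and 229 ± 31.8 CPM (SD, n = 4 each; log2 fold change -0.63 ± 0.14, adjusted p = 0.101). In the other direction, the mitotic kinesin gene Kif20a was at 53.6 ± 10.5 and 83.0 ± 8.11 CPM and the topoisomerase gene Top2a at 143 ± 18.8 and 191 ± 15.6 CPM, again without overlap. Bub1b and Mcm3 had log2 fold changes of 0.58 and 0.28, and Ccnb2 and Pcna of -0.14 and -0.22. Pcna is also in the list of further p53 targets.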
